A study of Mus musculus with 11 samples.

Results

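Expression of 9 genes of triglyceride breakdown and lipid droplet storage was examined in the ventricles of WT mice and of a mouse model of Williams–Beuren syndrome (WBS), with and without the monoacylglycerol lipase inhibitor JZL184. The genes were Pnpla2, Lipe, Abhd5, G0s2, Plin2, Plin4, Plin5, Dgat1 and Dgat2. They were chosen by name for the steps that lie before monoacylglycerol lipase in fat breakdown, and their rows were found by matching Ensembl gene identifiers to symbols of GENCODE mouse release M21. All 9 were present among the 22608 genes of the table, and all 9 were among the 11319 genes tested.

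Fat in a lipid droplet is broken down 1 fatty acid at a time. Adipose triglyceride lipase (Pnpla2) acts on triglyceride, hormone-sensitive lipase (Lipe) on diacylglycerol, and monoacylglycerol lipase (Mgll) on the monoacylglycerol that remains. Monoacylglycerol lipase also breaks down the endocannabinoid 2-AG. Abhd5 activates adipose triglyceride lipase, G0s2 inhibits it, perilipins (Plin2, Plin4, Plin5) coat the droplet and control access to it, and the acyltransferases Dgat1 and Dgat2 carry out the final step of triglyceride synthesis. In heart muscle, which runs largely on fatty acids, this turnover supplies fuel for mitochondria and ligands for PPAR transcription factors.

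The mice were males of 8 to 16 weeks on a C57BL/6J background. CD (complete deletion) mice lack, on 1 chromosome 5, the stretch of genes that matches the common WBS deletion, and WT mice were their littermates. There were 2 WT mice and 3 CD mice given vehicle (WT VEH and CD VEH), and 3 WT mice and 3 CD mice given JZL184 (WT JZL184 and CD JZL184), at 8 mg/kg by daily intraperitoneal injection for 10 days. The treatment field of the labels calls the controls untreated, while their titles and the methods of the study give vehicle, so the injections are shared by all 4 groups as far as the sources state. The letter of each mouse in the text is that of its column in the table. Some letters recur across groups, but no source states that they pair mice. None of the 9 genes lies on chromosome 5, so none belongs to the deleted interval.

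Total estimated counts were 69660329 to 92251550 per mouse, of which 36.4% to 46.6% fell on mitochondrially encoded genes. That share was 39.4% to 41.2% in WT VEH and 36.4% to 40.2% in CD JZL184, and was higher in every mouse of CD VEH (43.5% to 44.7%) and WT JZL184 (45.0% to 46.6%). All 14 tested genes of the deleted interval had less RNA in each CD mouse than in any WT mouse, which checks the genotype labels. Cardiomyocyte markers were abundant in every mouse, at 28764 to 41515 CPM summed over 7 genes. CD VEH mouse A stood apart in haemoglobin and other erythroid RNA, with 11797 CPM summed over 3 genes against 886 to 3344 CPM in the other mice. On the first principal component, with 38.5% of the variance, WT VEH and CD JZL184 mice lay on one side and CD VEH and WT JZL184 mice on the other. Values are CPM, the share of a library's counts on a fixed common scale after TMM factors, differences are log2 fold-changes (log2FC) with their SE, and a gene is called changed at an adjusted p under 0.05 in edgeR's quasi-likelihood test over all 11319 genes. The comparisons share groups, so agreement in sign between them is not independent.

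Pnpla2 and Lipe, the lipases, were not called in any of the 6 comparisons by the test just given, but each was called under some alternative settings. Pnpla2 (ENSMUSG00000025509.15, GRCm38 chromosome 7, 141455198 to 141460743, plus strand) had 168 and 204 CPM in WT VEH mice C and D and 161, 193 and 178 CPM in WT JZL184 mice A, B and D. It had 171, 199 and 169 CPM in CD VEH mice A, C and E and 197, 229.8 and 193 CPM in CD JZL184 mice A, C and E. The group ranges overlapped in every comparison of Pnpla2, and CD JZL184 held the highest mouse. Its log2FC was -0.05 (SE 0.12, adjusted p = 0.76) in CD VEH versus WT VEH and 0.20 (SE 0.10, adjusted p = 0.149) in CD JZL184 versus CD VEH. With an offset for gene length, described with G0s2, Pnpla2 was called higher in CD JZL184 than in CD VEH (log2FC 0.28, SE 0.10, edgeR adjusted p = 0.0467) and than in WT JZL184 (log2FC 0.29, SE 0.10, adjusted p = 0.0315), and its interaction between genotype and JZL184, the effect in CD minus that in WT, was 0.44 (SE 0.14, adjusted p = 0.0259). RNA came from ventricle tissue and not from sorted cells, so fewer cells of a type and less RNA per cell cannot be told apart for this or any other gene.

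Lipe (ENSMUSG00000003123.15, chromosome 7, 25379527 to 25398710, minus strand) had the largest SE of the 9 genes. It had 29.5 and 37.4 CPM in WT VEH, 34.0, 50.8 and 48.5 CPM in WT JZL184, 39.4, 42.5 and 41.8 CPM in CD VEH, and 34.3, 44.9 and 31.6 CPM in CD JZL184. Every CD VEH mouse lay above both WT VEH mice, but the log2FC of 0.30 (SE 0.18) had an adjusted p of 0.211. The log2FC in WT JZL184 versus WT VEH was 0.41 (SE 0.18, adjusted p = 0.101), and WT JZL184 mouse A lay between the WT VEH mice. The interaction for Lipe was -0.57 (SE 0.24, adjusted p = 0.0634) and was called in 5 of 18 alternatives, with adjusted p of 0.00934 to 0.0482 in those 5. Lipe was also called in CD VEH versus WT VEH with only the compared groups fitted (log2FC 0.30, adjusted p = 0.0482). Without WT JZL184 mouse A it was called in WT JZL184 versus WT VEH (log2FC 0.57, adjusted p = 0.0139) and in CD JZL184 versus WT JZL184 (log2FC -0.42, adjusted p = 0.0279).

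**Figure D1:**
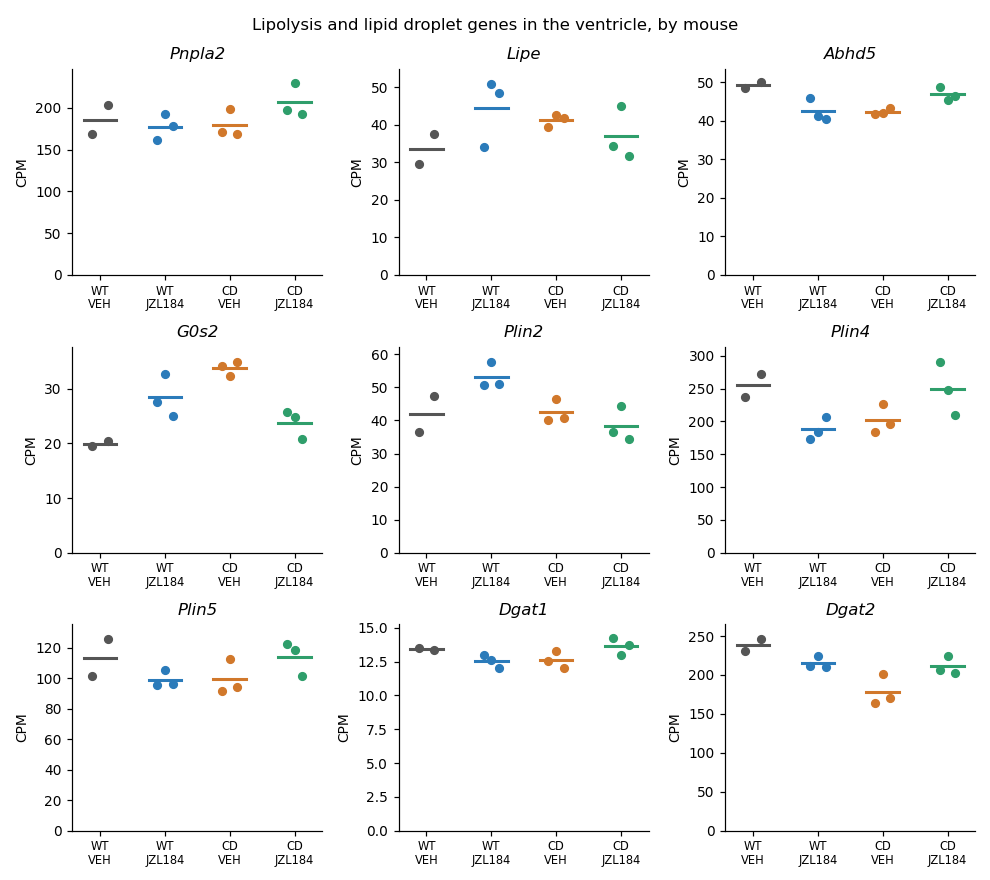
CPM of the 9 genes in each mouse (points) with the mean of each group (line), for 2 WT VEH mice and 3 mice in each other group, each panel with an axis from 0. G0s2 lay at 19.6 to 20.4 CPM in WT VEH and at 32.3 to 34.9 CPM in CD VEH, and the 4 groups of Pnpla2 overlapped.

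G0s2, the inhibitor of adipose triglyceride lipase, had the largest log2FC of the 9 in CD VEH versus WT VEH, in WT JZL184 versus WT VEH, in CD JZL184 versus CD VEH and in the interaction. With the length offset it had the largest in none of the 4, where Dgat2 (-0.50), Plin4 (-0.43), Plin5 (0.34) and Plin4 (0.71) did. G0s2 (ENSMUSG00000009633.3, chromosome 1, 193272161 to 193273217, minus strand) had 19.6 and 20.4 CPM in WT VEH, 34.1, 32.3 and 34.9 CPM in CD VEH, 27.6, 32.7 and 24.9 CPM in WT JZL184, and 25.7, 24.9 and 20.8 CPM in CD JZL184. Both WT VEH mice lay below all 9 other mice, and WT JZL184 mouse B was the one mouse of the other groups to reach the range of CD VEH. G0s2 was 1.69-fold higher in CD VEH than in WT VEH (log2FC 0.76, SE 0.11, edgeR adjusted p = 0.00269). It was also higher in WT JZL184 than in WT VEH (log2FC 0.51, SE 0.11, adjusted p = 0.00889), and lower in CD JZL184 than in CD VEH (log2FC -0.50, SE 0.10, adjusted p = 0.00446). JZL184 thus went with a higher level in WT and a lower level in CD mice, and the interaction was -1.01 (SE 0.15, adjusted p = 0.000363).

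The exons of G0s2 share 0 bases with the overlapping gene Lamb3 on the opposite strand, which had 9.66 to 13.7 CPM. The mitochondrial share of counts was high in the groups where G0s2 and Mgll were high and Abhd5 was low. With mitochondrial genes left out of the fit, the log2FC of G0s2 was 0.75 in CD VEH versus WT VEH (edgeR adjusted p = 0.00289) and -0.50 in CD JZL184 versus CD VEH (adjusted p = 0.00481), and the part of whatever sets that share in these differences was not tested. The size of the G0s2 differences depended on gene length. Its merged exons hold 871 bases, the shortest of the 9 genes, and the medians of genes with up to 1000 bases were shifted in the directions of G0s2. The median log2FC of the 198 tested genes of that length was 0.29 in CD VEH versus WT VEH, 0.26 in WT JZL184 versus WT VEH, -0.34 in CD JZL184 versus CD VEH and -0.58 in the interaction. With an offset for gene length, G0s2 was still called in CD VEH versus WT VEH (log2FC 0.47, SE 0.09, edgeR adjusted p = 0.00532) and in the interaction (-0.43, SE 0.11, adjusted p = 0.00945). It was not called in WT JZL184 versus WT VEH (log2FC 0.24, SE 0.09, adjusted p = 0.0536) or in CD JZL184 versus CD VEH (log2FC -0.19, SE 0.08, adjusted p = 0.0829). In CD JZL184 versus WT JZL184 its log2FC went from -0.26 to 0.04, and neither was called. The WT JZL184 result was also lost without WT VEH mouse C (adjusted p = 0.079) or mouse D (adjusted p = 0.0532). With CD VEH mouse A left out, which was high in erythroid RNA, G0s2 had a log2FC of 0.75 in CD VEH versus WT VEH (adjusted p = 0.0122) and -0.49 in CD JZL184 versus CD VEH (adjusted p = 0.0212).

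**Figure D2:**
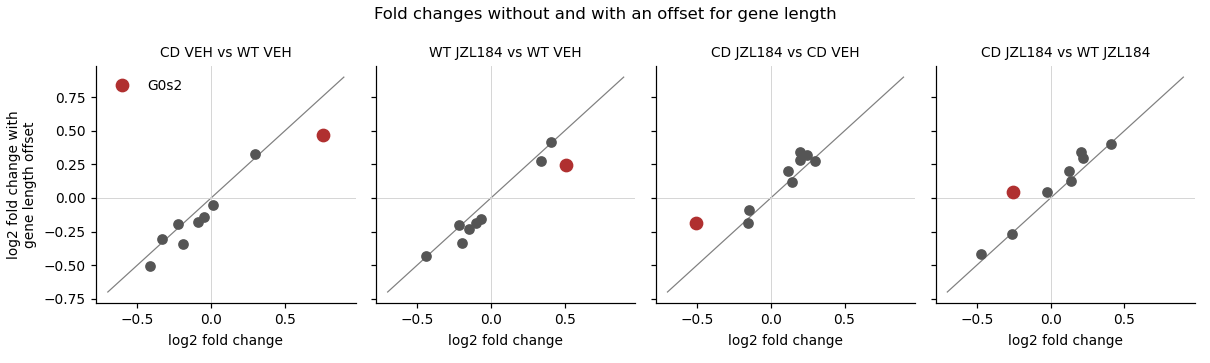
Log2 fold-changes of the 9 genes in 4 comparisons without (horizontal axis) and with (vertical axis) an offset for gene length, where points on the diagonal are unchanged. G0s2 (red, 871 bases of exon) moved from 0.76 to 0.47 in CD VEH versus WT VEH and from -0.50 to -0.19 in CD JZL184 versus CD VEH.

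Abhd5, the activator of adipose triglyceride lipase, moved opposite to G0s2 and by less. Abhd5 (ENSMUSG00000032540.15, chromosome 9, 122351608 to 122381524, plus strand) had 48.7 and 50.1 CPM in WT VEH, 41.7, 41.9 and 43.3 CPM in CD VEH, 46.0, 41.4 and 40.4 CPM in WT JZL184, and 48.8, 45.5 and 46.3 CPM in CD JZL184. All CD VEH and WT JZL184 mice lay below both WT VEH mice, and all CD JZL184 mice lay above all CD VEH mice. It was called lower in CD VEH than in WT VEH (log2FC -0.22, SE 0.07, edgeR adjusted p = 0.0267) and lower in WT JZL184 than in WT VEH (log2FC -0.21, SE 0.07, adjusted p = 0.0317). The difference of CD JZL184 from CD VEH was not called (log2FC 0.15, SE 0.06, adjusted p = 0.0735), and the interaction was 0.36 (SE 0.09, adjusted p = 0.00571). Without WT VEH mouse C or D the adjusted p was 0.103 or 0.143 in CD VEH versus WT VEH and 0.114 or 0.161 in WT JZL184 versus WT VEH. It was 0.073 in CD VEH versus WT VEH without CD VEH mouse A, and 0.0806 or 0.0858 in WT JZL184 versus WT VEH without WT JZL184 mouse B or D. With the length offset it was 0.0672 and 0.0512 in the same comparisons, so both calls for Abhd5 are near the threshold.

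The ratio of Pnpla2 to G0s2 sets the lipase beside its inhibitor within each mouse and does not depend on library scaling. It is not corrected for gene length, which differs between them (3020 bases of exon in Pnpla2 and 871 in G0s2), so the length dependence of G0s2 enters it. It was 8.60 and 10.01 in WT VEH, 4.85 to 6.16 in CD VEH, 5.84 to 7.15 in WT JZL184 and 7.68 to 9.25 in CD JZL184. The ratio in every CD VEH and WT JZL184 mouse was below that in every WT VEH and CD JZL184 mouse. The mean log2 ratio differed by -0.80 in CD VEH versus WT VEH (exact two-sided permutation p = 0.2, the smallest that 3 against 2 mice allow), and by 0.71 in CD JZL184 versus CD VEH (exact p = 0.1, the smallest that 3 against 3 allow). The differences were -0.57 in WT JZL184 versus WT VEH (exact p = 0.2) and 0.47 in CD JZL184 versus WT JZL184 (exact p = 0.1), also the smallest possible, and -0.09 in CD JZL184 versus WT VEH (exact p = 0.6). None of these designs can reach 0.05. With the length offset, the log2FC of Pnpla2 minus that of G0s2 was -0.61 in CD VEH versus WT VEH, 0.47 in CD JZL184 versus CD VEH, -0.40 in WT JZL184 versus WT VEH and 0.25 in CD JZL184 versus WT JZL184, values for which no test was run. The ratio of Pnpla2 to Plin5, its partner on the droplet, was 1.61 to 1.94 over all mice, and its group means ran from 1.64 in WT VEH to 1.82 in CD JZL184.

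Plin4 had the largest interaction of the 3 perilipins. Plin4 (ENSMUSG00000002831.13, chromosome 17, 56100591 to 56109803, minus strand) had 237 and 272 CPM in WT VEH, 173, 184 and 207 CPM in WT JZL184, 184, 226 and 196 CPM in CD VEH, and 290.3, 247 and 210.4 CPM in CD JZL184. The WT JZL184 mice all lay below both WT VEH mice and below all CD JZL184 mice, the last by a narrow gap between WT JZL184 mouse D and CD JZL184 mouse E. Plin4 was called lower in WT JZL184 than in WT VEH (log2FC -0.44, SE 0.13, edgeR adjusted p = 0.0292) and higher in CD JZL184 than in WT JZL184 (log2FC 0.41, SE 0.12, adjusted p = 0.0198). Its log2FC was -0.33 in CD VEH versus WT VEH (adjusted p = 0.076) and 0.30 in CD JZL184 versus CD VEH (adjusted p = 0.0709), and the interaction was 0.74 (SE 0.18, adjusted p = 0.00517). The first call was lost without WT JZL184 mouse A (adjusted p = 0.0615) or B (0.07) or WT VEH mouse C (0.0754) or D (0.198). The second was lost without CD JZL184 mouse A (adjusted p = 0.088), WT JZL184 mouse A (0.0568) or WT JZL184 mouse B (0.0519). The Plin4 exons share 17 bases with the gene Hdgfl2 on the opposite strand, which had 22.8 to 25.5 CPM, and no source states that strand was used in the counting.

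Plin2, the perilipin found in most cell types, differed between treated mice of the 2 genotypes. Plin2 (ENSMUSG00000028494.12, chromosome 4, 86648386 to 86670060, minus strand) had 50.8, 57.7 and 51.1 CPM in WT JZL184, 36.4, 44.3 and 34.4 CPM in CD JZL184, 36.7 and 47.3 CPM in WT VEH, and 40.1, 46.5 and 40.7 CPM in CD VEH. Every WT JZL184 mouse lay above all 8 mice of the other groups, which overlapped one another. Plin2 was lower in CD JZL184 than in WT JZL184 (log2FC -0.47, SE 0.11, edgeR adjusted p = 0.00779), and this call held in each of the 19 alternatives. The log2FC was 0.34 in WT JZL184 versus WT VEH (SE 0.13, adjusted p = 0.0636) and 0.01 in CD VEH versus WT VEH (SE 0.13, adjusted p = 0.938). The interaction was -0.49 (SE 0.17, adjusted p = 0.0317). It was not called with the length offset (adjusted p = 0.0785), without CD JZL184 mouse A (0.0681) or E (0.0737), without CD VEH mouse C (0.0736), without WT JZL184 mouse B (0.0644) or without WT VEH mouse C (0.172).

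Plin5, the perilipin of tissues that burn fat, and Dgat1 were not called in any comparison with all mice and no length offset in edgeR's fit of the 4 groups. Plin5 (ENSMUSG00000011305.11, chromosome 17, 56111601 to 56117596, minus strand), which lies 1797 bases from Plin4 on the same strand, had 101 and 126 CPM in WT VEH, 95.8, 105 and 96.1 CPM in WT JZL184, 91.9, 113 and 94.2 CPM in CD VEH, and 123, 118 and 101 CPM in CD JZL184. Its log2FC was -0.19 in CD VEH versus WT VEH, -0.20 in WT JZL184 versus WT VEH, 0.20 in CD JZL184 versus CD VEH and 0.20 in CD JZL184 versus WT JZL184, with adjusted p from 0.142 to 0.232, and its interaction was 0.39 (SE 0.16, adjusted p = 0.0537). With the length offset Plin5 was called in 4 of these, lower in WT JZL184 than in WT VEH (log2FC -0.33, adjusted p = 0.0493), higher in CD JZL184 than in CD VEH (0.34, adjusted p = 0.031) and than in WT JZL184 (0.34, adjusted p = 0.0248), with an interaction of 0.68 (SE 0.16, adjusted p = 0.00426). The interaction of Plin5 was called in 7 of 18 alternatives. Dgat1 (ENSMUSG00000022555.11, chromosome 15, 76502015 to 76511953, minus strand) ran from 12.01 CPM in CD VEH mouse E to 14.3 CPM in CD JZL184 mouse A. Its largest difference between groups was a log2FC of 0.13 (SE 0.06, adjusted p = 0.127) in CD JZL184 versus WT JZL184, where the mice did not overlap, and its interaction was 0.22 (SE 0.09, adjusted p = 0.0708). With the length offset Dgat1 was called higher in CD JZL184 than in CD VEH (log2FC 0.20, adjusted p = 0.0474) and than in WT JZL184 (0.20, adjusted p = 0.0366), and its interaction was 0.38 (SE 0.10, adjusted p = 0.00953), one of 3 alternatives of 18 that called it.

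Dgat2, the second acyltransferase, was lowest in CD mice given vehicle. Dgat2 (ENSMUSG00000030747.5, chromosome 7, 99153658 to 99182719, minus strand) had 231 and 246 CPM in WT VEH, 164, 202 and 170.1 CPM in CD VEH, 212, 224 and 209.7 CPM in WT JZL184, and 207, 225 and 203 CPM in CD JZL184. Every CD VEH mouse lay below the mice of each other group, the closest pair being CD VEH mouse C and CD JZL184 mouse E. Dgat2 was lower in CD VEH than in WT VEH (log2FC -0.42, SE 0.09, edgeR adjusted p = 0.00808), which was lost without WT VEH mouse C (adjusted p = 0.0536) or D (adjusted p = 0.0649). It was higher in CD JZL184 than in CD VEH (log2FC 0.24, SE 0.08, adjusted p = 0.0388), a call lost in 9 of 19 alternatives with adjusted p up to 0.14. These included leaving out CD JZL184 mouse A (adjusted p = 0.0723), C (0.129) or E (0.0644), CD VEH mouse A (0.14) or E (0.127), and either WT VEH mouse (0.0521 each). The effect of JZL184 in WT mice was not called (log2FC -0.15, SE 0.09, adjusted p = 0.235), and the interaction was 0.39 (SE 0.12, adjusted p = 0.019), not called without WT VEH mouse D (0.0801).

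**Figure D3:**
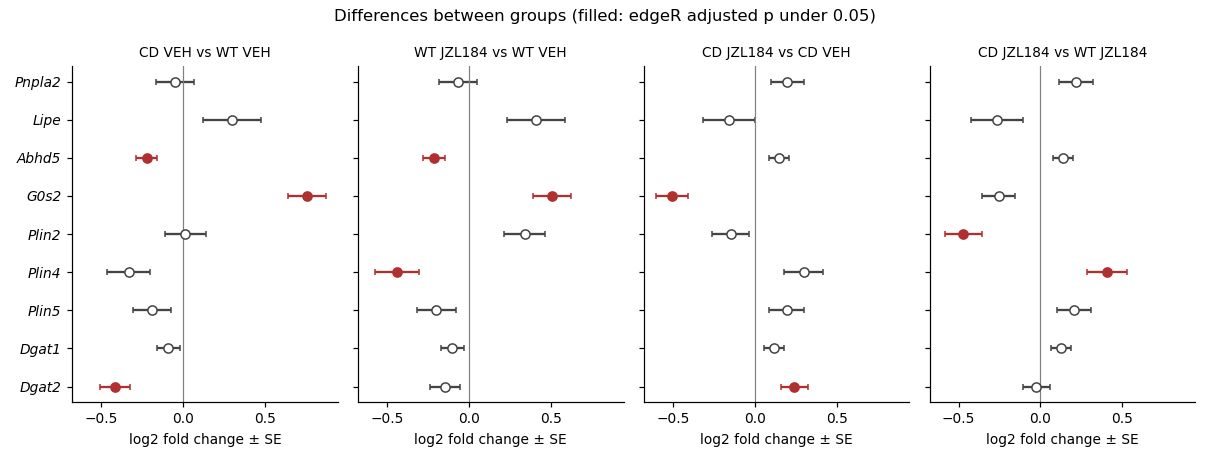
Log2 fold-changes with SE of the 9 genes in 4 comparisons, filled and red where the edgeR adjusted p was under 0.05. G0s2 was higher in CD VEH and in WT JZL184 than in WT VEH (0.76 and 0.51) and lower in CD JZL184 than in CD VEH (-0.50), and Pnpla2, Lipe, Plin5 and Dgat1 have no filled point.

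Counted over the 9 genes, the calls were about as frequent as over all genes. In CD VEH versus WT VEH, 3 of 9 (33.3%) were called, G0s2 higher and Abhd5 and Dgat2 lower, against 30.4% of all tested genes, 15.0% higher and 15.4% lower. In WT JZL184 versus WT VEH it was 3 of 9 (33.3%), G0s2 higher and Abhd5 and Plin4 lower, against 29.4% (15.4% higher, 14.0% lower). For CD JZL184 versus CD VEH it was 2 of 9 (22.2%), Dgat2 higher and G0s2 lower, against 33.8% (16.8% higher, 17.0% lower). Between CD JZL184 and WT JZL184 it was 2 of 9 (22.2%), Plin4 higher and Plin2 lower, against 38.3% (18.2% higher, 20.1% lower). The interaction was called for 5 of 9 (55.6%), Abhd5, Plin4 and Dgat2 with a positive and G0s2 and Plin2 with a negative sign, against 51.5% (25.3% positive, 26.2% negative). None of these shares is a result about the 9 genes as a set, and the members moved in both directions. Without WT VEH mouse C the count in WT JZL184 versus WT VEH was 0, where 4.93% of all tested genes were called. The count in CD VEH versus WT VEH was 1, G0s2, without WT VEH mouse C (3.40% of all genes) or mouse D (10.7% of all genes).

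CD JZL184 and WT VEH were compared directly to see whether CD ventricles after JZL184 differed from WT ventricles after vehicle. None of the 9 genes was called by edgeR, where 0.186% of all tested genes were, and none was called by DESeq2, where 0.928% were. G0s2 was the gene with an unadjusted p under 0.05, at 0.0454 (log2FC 0.25, SE 0.11, adjusted p = 0.524). The log2FC of the other 8 ran from -0.17 for Dgat2 to 0.15 for Pnpla2, with SE of 0.07 to 0.18. These values do not show that the groups are equal.

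Mgll, which encodes the target of JZL184, moved as G0s2 did. Mgll had 101 and 123 CPM in WT VEH, 151, 198 and 178 CPM in WT JZL184, 148, 165 and 144 CPM in CD VEH, and 104, 135 and 107 CPM in CD JZL184. All WT JZL184 and CD VEH mice lay above all WT VEH and CD JZL184 mice. Its log2FC was 0.44 in CD VEH versus WT VEH (SE 0.14, edgeR adjusted p = 0.0329), 0.65 in WT JZL184 versus WT VEH (SE 0.14, adjusted p = 0.00792) and -0.40 in CD JZL184 versus CD VEH (SE 0.12, adjusted p = 0.0278). The interaction was -1.05 (SE 0.19, adjusted p = 0.000925). Mgll has 5077 bases of exon, and with the length offset the values were 0.45, 0.64, -0.40 and -1.04.

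Levels can be compared between genes only per exon length. Per kb of merged exon, averaged over the 11 mice, Dgat2 had 67.6 CPM, Pnpla2 62.1, Plin5 50.8, Plin4 38.2, G0s2 31.1, Plin2 12.6, Abhd5 7.54, Lipe 6.71 and Dgat1 4.26. The order was the same with the length of the longest annotated transcript. The ranges over mice overlapped between Dgat2 and Pnpla2, Pnpla2 and Plin5, Plin5 and Plin4, Plin4 and G0s2, and Abhd5 and Lipe, so these neighbours did not differ beyond the spread between mice. Within mice, however, Pnpla2 was above Plin5 and Plin5 above Plin4 in 11 of 11 mice. Dgat2 was above Pnpla2, Plin4 above G0s2 and Abhd5 above Lipe in 7 of 11 each. Every mouse had more G0s2 than Plin2 on this scale, which separates the upper 5 genes from the lower 4. Dgat2 was above Dgat1 and Pnpla2 above Lipe in every mouse.

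**Figure D4:**
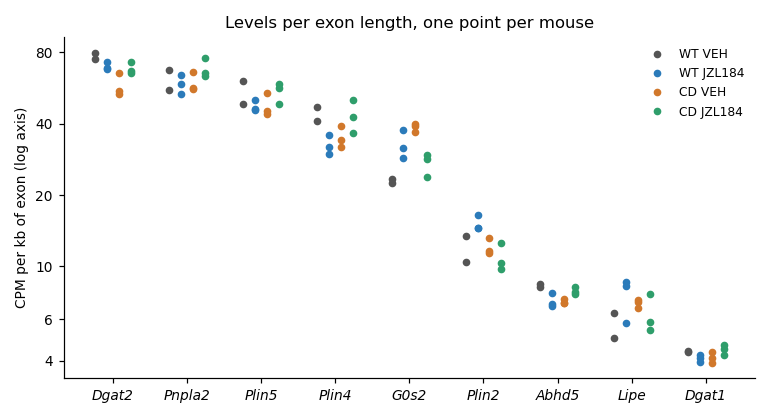
CPM per kb of merged exon (log axis) of the 9 genes in order of their mean, with a point for each of the 11 mice coloured by group. Means fall from 67.6 for Dgat2 to 4.26 for Dgat1, and the ranges of Dgat2, Pnpla2, Plin5 and Plin4 overlap from each gene to the next.

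Mice of the same group differed from one another in several of these genes together. Pnpla2, Lipe, Plin2, Dgat2 and Mgll each had their highest value of a group in the same mouse, CD JZL184 mouse C, CD VEH mouse C, WT JZL184 mouse B and WT VEH mouse D. Total counts were not highest in these mice throughout, since WT JZL184 mouse B and CD VEH mouse C had the lowest totals of their groups. After subtracting each group's mean log2 CPM, Pnpla2 was correlated with Plin2 over the 11 mice (Pearson r = 0.95, exact permutation p = 0.00463 within groups, Spearman rho = 0.89, exact p = 0.00694), with Lipe (r = 0.86, exact p = 0.00463, rho = 0.87, exact p = 0.00463) and with Mgll (r = 0.96, exact p = 0.00694, rho = 0.90, exact p = 0.00926). Without the 2 mice farthest from the median in Pnpla2, r was 0.92, 0.88 and 0.96. Of 55 such pairs among the 9 genes, Mgll and Pdk4, 16 had an unadjusted permutation p under 0.05 for r, all 16 positive, and 0 had a Benjamini-Hochberg adjusted p under 0.05, with 0.0764 the lowest for r and 0.0637 for rho. Only 432 arrangements within groups exist, so no p can be below 0.00231, and the correlations fail the correction. Plin4 and Plin5, neighbours on chromosome 17, had r = 0.78 (exact p = 0.0301, adjusted 0.1182, rho = 0.85, exact p = 0.0139), and r = 0.70 without the 2 farthest mice. G0s2 did not follow Pnpla2, with r = 0.31.

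**Figure D5:**
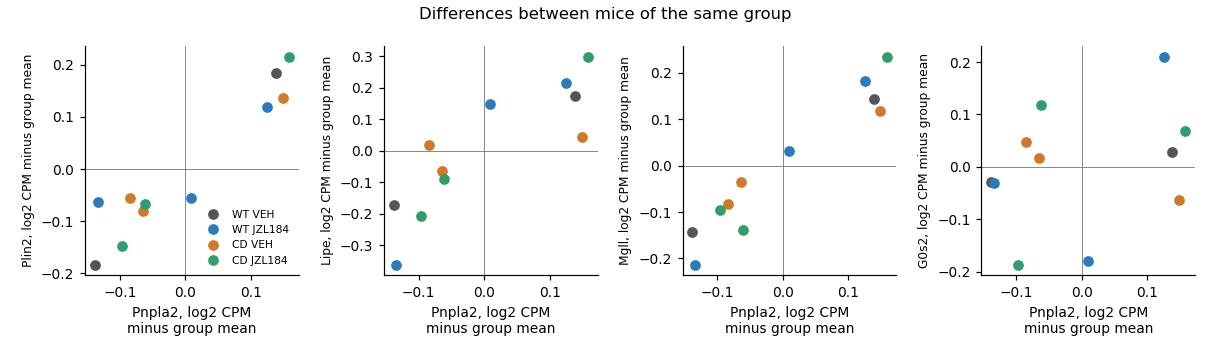
Log2 CPM minus the group mean in each of the 11 mice for Pnpla2 (horizontal) against Plin2, Lipe, Mgll and G0s2 (vertical), coloured by group. For Plin2, Lipe and Mgll, the mice high in Pnpla2 are high (r = 0.95, 0.86 and 0.96), and for G0s2 the points scatter (r = 0.31).

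The genes most like each member in pattern were taken by Pearson r of log2 CPM over the 11 mice, as a description in which group differences enter. G0s2 was most like Arl4d (r = 0.98), Pold4 (0.97) and Eif6 (0.96). Abhd5 was most like Galnt1 (0.98), Fsd1l (0.96) and Nipa2 (0.96), and Dgat1 like Mblac2 (0.97), 1810013L24Rik (0.93) and Atpaf1 (0.91). Plin5 was most like Pxmp4 (0.91) and Pex11a (0.90), which encode peroxisomal membrane proteins, and Ubac2 (0.89). Dgat2 was most like Acsf2 (0.96), a mitochondrial acyl-CoA synthetase, Tecpr1 (0.94) and Camk2b (0.94). Pnpla2 was most like Lpcat3 (0.94), which remodels phospholipids, Mettl13 (0.94) and Cuedc1 (0.94). Lipe was most like Cpne1 (0.94), Mlst8 (0.94) and Ankrd27 (0.93), Plin2 like Capn2 (0.94), Acbd4 (0.91) and Mgst1 (0.90), and Plin4 like Tfcp2 (0.94), Braf (0.94) and Fer1l5 (0.93).

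Around the 9 genes, 36 further genes of triglyceride synthesis, other lipases and their regulators, and droplet coat and formation were tested. In CD VEH versus WT VEH 10 of 36 were called (27.8%, beside 30.4% of all tested genes), 6 higher and 4 lower, and in WT JZL184 versus WT VEH 10 were called (beside 29.4%), also 6 higher and 4 lower. CD JZL184 versus CD VEH gave 11 calls (30.6%, beside 33.8%), 5 higher and 6 lower, CD JZL184 versus WT JZL184 gave 15 (41.7%, beside 38.3%), 6 higher and 9 lower, and the interaction gave 17 (47.2%, beside 51.5%), 7 positive and 10 negative. Between CD JZL184 and WT VEH edgeR called 0, with 4 at an unadjusted p under 0.05. The median log2FC of the 36 lay between -0.01 and 0.03 in these 6 comparisons, and that of all genes between -0.01 and 0.01. By group, the 11 genes of triglyceride synthesis had 0 higher and 1 lower in CD VEH versus WT VEH, the 12 other lipases and regulators 3 and 2, and the 13 droplet genes 3 and 1.

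Lpin1 and Cav1 moved most in this surrounding list, in opposite directions. Lpin1, which makes the diacylglycerol that Dgat1 and Dgat2 use, had 164 ± 0.916 CPM (SD, n = 2) in WT VEH, 109 ± 11.04 (SD, n = 3) in CD VEH, 96.2 ± 8.29 (SD, n = 3) in WT JZL184 and 157 ± 8.01 (SD, n = 3) in CD JZL184. Its log2FC was -0.58 in CD VEH versus WT VEH (SE 0.09, edgeR adjusted p = 0.00305), -0.77 in WT JZL184 versus WT VEH (adjusted p = 0.00107) and 0.52 in CD JZL184 versus CD VEH (adjusted p = 0.00235). Cav1, the caveolin of caveolae and abundant in endothelium, had 152 ± 6.99 CPM in WT VEH (SD, n = 2), 242 ± 21.1 in CD VEH, 249.9 ± 3.69 in WT JZL184 and 168 ± 15.7 in CD JZL184 (SD, n = 3 each). Its log2FC in the same 3 comparisons was 0.66, 0.71 and -0.53, with adjusted p of 0.00212, 0.00137 and 0.00235.

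A kinase that switches lipolysis on was called as well, along with other droplet and lipase genes. Prkaca, a catalytic subunit of protein kinase A, fell from 164 ± 3.94 CPM (SD, n = 2) in WT VEH to 131 ± 5.68 in CD VEH and 130 ± 3.89 in WT JZL184 (SD, n = 3 each), with log2FC of -0.32 (edgeR adjusted p = 0.006) and -0.33 (adjusted p = 0.00506). In CD JZL184 it had a mean of 167 CPM, higher than in CD VEH (log2FC 0.35, adjusted p = 0.0026) and than in WT JZL184 (0.36, adjusted p = 0.00133). Hilpda, another inhibitor of adipose triglyceride lipase, was lower in CD JZL184 (2.68 ± 0.0337 CPM, SD, n = 3) than in CD VEH (3.72 ± 0.517), with a log2FC of -0.47 (SE 0.11, adjusted p = 0.0094), the direction that G0s2 took. Like G0s2 it is a short gene (2.43 CPM per kb of exon in CD JZL184). The median log2FC of tested genes of 1000 to 2000 bases was -0.19 in this comparison, and no value with the length offset is given for Hilpda. Fitm2, which takes part in droplet formation, was higher in that comparison (log2FC 0.35, SE 0.08, adjusted p = 0.00772). Ces1d, a carboxylesterase with triglyceride hydrolase activity, was higher in CD JZL184 than in WT JZL184 (log2FC 0.52, SE 0.15, adjusted p = 0.0186), where Mgll was lower (log2FC -0.61, SE 0.12, adjusted p = 0.00356).

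PPAR targets were counted because Plin2, Plin5, Pnpla2 and G0s2 are known as such. Of 12 tested PPAR targets of lipid and fuel metabolism, 0 were called higher and 2 lower in CD VEH versus WT VEH and in WT JZL184 versus WT VEH. That is 16.7% in each, beside 30.4% and 29.4% of all tested genes. In CD JZL184 versus CD VEH and in CD JZL184 versus WT JZL184, 3 were called higher and 0 lower, a smaller share of the list than the 33.8% and 38.3% called over all genes. The interaction was called for 4, all positive (33.3%, beside 51.5%). Their median log2FC was -0.05, -0.0017, 0.15 and 0.15 in the 4 comparisons between groups, in the order given.

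Fat cells, blood vessels and other cells also express several of the 9 genes, so marker lists were read beside them. The defining adipocyte genes were near 0, with at most 0.295 CPM of Adipoq, 0.356 of Plin1, 0.331 of Cidec, 1.09 of Cfd and 0.193 of Ucp1 in any mouse. Summed over 7 adipocyte genes the level was 0.248 to 0.333 CPM in WT VEH, 0.274 to 0.889 in WT JZL184, 1.23 to 4.196 in CD VEH and 0.726 to 2.87 in CD JZL184. The other 2 genes of the adipocyte list, Fabp4 and Pparg, which capillary endothelium expresses too, had 264 ± 5.40 and 7.21 ± 0.585 CPM in WT VEH (SD, n = 2) and 449 ± 38.8 and 10.3 ± 0.857 CPM in CD VEH (SD, n = 3). Endothelial markers moved with G0s2 and Mgll. Summed over 5 genes they had 484 to 491 CPM in WT VEH, 619 to 685 in CD VEH, 744 to 768 in WT JZL184 and 477 to 560 in CD JZL184. Of the 5, 4 were called higher in CD VEH than in WT VEH, beside 15.0% of all tested genes. In CD JZL184 versus CD VEH 4 of 5 were called lower, beside 17.0% of all tested genes. Macrophage markers (4 genes) went from 72.4 to 73.4 CPM in WT VEH, 89.6 to 106 in CD VEH, 87.3 to 133 in WT JZL184 and 67.9 to 76.3 in CD JZL184. Fibroblast markers (4 genes) had 525 to 547, 624 to 696, 669.9 to 822 and 492 to 543 CPM in the same groups. Smooth muscle markers (4 genes) had 78.7 to 89.6, 91.1 to 100.3, 120.2 to 159 and 57.5 to 73.6 CPM. The genes in these last sums did not all move together. In CD VEH versus WT VEH, Dcn was called higher (log2FC 0.43, edgeR adjusted p = 0.00848). Pdgfra (0.14), Col1a1 (-0.0021) and Col1a2 (-0.0055) were not called. Myh11 and Tagln were called higher (0.70 each, adjusted p = 0.0265 and 0.0251), and Acta2 was not called (-0.15, adjusted p = 0.58). Cardiomyocyte markers (7 genes) had 41336 to 41515 CPM in WT VEH, 33831 to 37060 in CD VEH, 28764 to 38664 in WT JZL184 and 38206 to 40733 in CD JZL184. Of these 7, 0 were called higher and 3 lower in CD VEH versus WT VEH (42.9% called, beside 30.4% of all tested genes). Tnni3 and Myl2 had log2FC of 0.24 (edgeR adjusted p = 0.0911) and 0.25 (adjusted p = 0.0983) in that comparison. In CD JZL184 versus CD VEH 2 of the 7 were called higher and Myl2 lower (log2FC -0.35, edgeR adjusted p = 0.0165), 42.9% beside 33.8% of all tested genes. Brown adipocyte markers (3 genes, nearly all of it Cidea) stayed at 15.5 to 18.4 CPM in all mice, and 4 atrial markers had 50.5 to 221 CPM. Nearly all of the atrial sum was Nppa, with at most 0.521 CPM of Myl7, 0.188 of Sln and 1.695 of Myl4 in any mouse. The part of these cell types in the differences of G0s2, Abhd5, Plin4 and Dgat2 was not tested.

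Promoter sequence is shown for G0s2, Abhd5 and Plin2, an inhibitor and an activator that moved in opposite directions and the perilipin highest in WT JZL184. The sequences are from RefSeq on GRCm38.p6, where 7 of the 9 genes had a promoter window of 300 bases, and 9 windows in all. Dgat1 and Dgat2 are named only. Each line gives the 250 bases before the RefSeq transcript start, in the sense of the gene, with matches to AGGTCA on either strand in capitals.
G0s2 (chr1:193273189-193273438, minus strand): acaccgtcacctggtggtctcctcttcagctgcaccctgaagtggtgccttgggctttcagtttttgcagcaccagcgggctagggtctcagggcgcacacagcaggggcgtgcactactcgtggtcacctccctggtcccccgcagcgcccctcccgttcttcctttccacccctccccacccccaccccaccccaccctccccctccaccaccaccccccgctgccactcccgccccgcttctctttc
Abhd5 (chr9:122351366-122351615, plus strand): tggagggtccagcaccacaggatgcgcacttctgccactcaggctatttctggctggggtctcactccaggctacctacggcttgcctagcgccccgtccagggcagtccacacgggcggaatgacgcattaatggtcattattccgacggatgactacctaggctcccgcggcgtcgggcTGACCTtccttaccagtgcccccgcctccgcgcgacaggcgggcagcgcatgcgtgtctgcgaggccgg
Plin2 (chr4:86670060-86670309, minus strand): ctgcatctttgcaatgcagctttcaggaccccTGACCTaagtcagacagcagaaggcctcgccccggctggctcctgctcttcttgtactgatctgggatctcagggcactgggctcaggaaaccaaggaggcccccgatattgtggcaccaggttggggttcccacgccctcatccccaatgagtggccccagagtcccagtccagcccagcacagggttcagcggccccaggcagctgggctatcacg

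AGGTCA is the half-site of nuclear receptors such as PPAR and RXR, and the capitals in Abhd5 and Plin2 are its reverse complement, beginning 69 and 218 bases before the start. It occurs in 16.3% of all 32851 RefSeq promoter windows of 300 bases, and also in both windows of Plin5. The full direct repeat, 2 copies of AGGTCA with 1 base between them, which contains the half-site, occurs in 0.0396% of windows and in no window of the 7 genes. The E-box CACGTG, in 7.15% of windows, occurs in Lipe at 155 bases before a start and in Plin2 from 4 bases before the start into the transcript. The CREB site TGACGTCA (1.79% of windows) and TATAAA (13.6%) occur in none of the 7 genes. The window of G0s2 holds none of these letters. A match or its absence describes these letters only.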

How the data were processed

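Ventricle RNA of 11 mice in 4 groups, assigned from the sample labels, was analysed from 1 table of estimated counts per gene. The authors made and deposited these estimated counts by Salmon 0.7.2 (Ensembl 85, GRCm38) and tximport 1.2.0, with no scaling, from libraries run on a HiSeq 3000. They tested them with DESeq2 1.26.0. The table has 0 columns without a group. The column names give a group and a letter absent from the labels, so mice could not be tied to numbered samples, and no pairs were assumed.

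For the tests, values were rounded to whole numbers and fitted by edgeR 4.0.16 (R 4.3.3, limma 3.58.1, TMM factors, quasi-likelihood test, all 4 groups in a single fit). Genes averaging a log2 CPM of 1 or more entered, p-values were adjusted over all 11319 by Benjamini-Hochberg, with a common biological coefficient of variation of 9.13%. Identifiers of 22238 of 22608 genes matched GENCODE M21, which gave exon lengths. Log2 CPM for correlations had a prior count of 2. At the depth of each mouse, 3 counts are 0.0325 to 0.0431 CPM, which covers counting error only. Mice of a group differed by more than sampling noise (chi-square 22.6 to 125 per gene for each pair). Each mouse was taken as a separate replicate.

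The alternatives were DESeq2 1.42.0, RLE and upper-quartile factors, no filter, a minimum of 10 counts per mouse, a model of the compared groups alone, an offset for gene length (loess, span 0.5), no mitochondrial genes, and leaving out each mouse. The steps were tested on simulated counts. The members and lists were chosen with earlier results of these data known. The text names the 9 members, Mgll, 5 adipocyte and brown fat markers, for each comparison up to 2 called pathway genes with the highest and 2 with the lowest log2FC with no overlap of groups in CPM, and the 3 genes most like each member. Pdk4, and the tests of correlation within groups, were added after seeing the data, and genes named from the marker lists beyond these 5 were also named then. A gene that this rule names is not reported here.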

Additional observations from a re-analysis of the deposited data

Results flagged for a closer look

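The effect of JZL184 differed between CD and WT mice, by edgeR's test of the interaction, for 5 of the 9 members and for 6 of the pathway genes named beside them, Mgll included. Among the members the interaction was -1.01 for G0s2, -0.49 for Plin2, 0.36 for Abhd5, 0.74 for Plin4 and 0.39 for Dgat2 on the log2 scale. Among the others it was -1.05 for Mgll, 1.29 for Lpin1 (adjusted p = 8.93e-05), 0.68 for Prkaca (adjusted p = 0.000202), -1.24 for Cav1 (adjusted p = 9.78e-05), -0.90 for Hilpda (adjusted p = 0.00127) and 0.61 for Fitm2 (adjusted p = 0.00158). The interaction was called for 51.5% of all tested genes and for 17 of the 36 pathway genes tested (47.2%). The named pathway genes, Mgll apart, were picked for called differences in these same data, so their number is not a result. The groups held 2 or 3 mice, and no test of single outlying mice was run.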

How the results depend on the processing

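No paired analysis was possible because the columns of the table carry no sample numbers. Of 846 alternative values for the members' 45 log2FC (9 genes in 4 comparisons and the interaction), 752 kept direction and side of the threshold, 43 were no longer called, 42 became called and 9 changed sign. None of the 15 called values changed sign, and 5 were called in every alternative: G0s2 in CD VEH versus WT VEH and in the interaction, Plin2 in CD JZL184 versus WT JZL184, and Abhd5 and Plin4 in the interaction. The number of members called in CD VEH versus WT VEH went from 3 to 5 with only the compared groups (35.0% of all genes called, beside 30.4% before). In CD JZL184 versus CD VEH it went from 2 (33.8% of all genes) to 1 with upper-quartile factors (33.6%) or no filter (18.2%), and to 4 with the length offset (28.1%), which called Dgat1, Dgat2, Plin5 and Pnpla2 and not G0s2. In CD JZL184 versus WT JZL184 it went from 2 (38.3%) to 5 with the length offset (36.8%). Leaving out 1 mouse gave 1 to 4 members in CD VEH versus WT VEH, 1 to 3 in CD JZL184 versus CD VEH and in CD JZL184 versus WT JZL184, 0 to 4 in WT JZL184 versus WT VEH and 4 to 7 in the interaction. Over the 11305 to 11342 genes tested, the calls under the same settings went from 385 to 4201, 2038 to 4655, 2957 to 4873, 558 to 4487 and 4579 to 6412, in that order of comparisons. Values that changed sign were small. With the length offset these were Plin2 in CD VEH versus WT VEH (-0.0511) and, in CD JZL184 versus WT JZL184, G0s2 (0.0435) and Dgat2 (0.0474). Leaving out 1 mouse gave -0.182 to 0.0941 for Pnpla2 and -0.158 to 0.2099 for Plin2 in CD VEH versus WT VEH, -0.2001 to 0.0761 for Pnpla2 in WT JZL184 versus WT VEH, and -0.0721 to 0.0058 for Dgat2 in CD JZL184 versus WT JZL184. The cause of the changes other than fewer mice was not tested.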

Other observations

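Pdk4, which encodes a kinase that restrains glucose oxidation and is induced in fasting, differed more between mice of a group than any of the 9 members. It had 405 and 1075 CPM in WT VEH mice C and D, 399, 819.5 and 1060 CPM in WT JZL184 mice A, B and D, 623, 863 and 713 CPM in CD VEH mice A, C and E, and 612, 1237 and 262 CPM in CD JZL184 mice A, C and E. Group means were 703.6 to 759 CPM, and the log2FC between groups was not called in any of the 6 comparisons. In all 4 groups the mouse lowest in Pdk4 was also the lowest in Lipe, Plin2, Plin4 and Plin5, in 3 it was the lowest in Pnpla2 and Dgat2, in 2 it was the lowest in G0s2 and Abhd5, and in 0 in Dgat1. The mouse highest in Pdk4 was also the highest in 3 groups for Pnpla2, Lipe, Plin2, Plin4 and Dgat2, in 2 for Plin5 and in 1 for G0s2, Abhd5 and Dgat1. Within groups, r with Pdk4 over the 11 mice was 0.91 for Lipe (exact permutation p = 0.00926, adjusted over 55 pairs 0.0764), 0.82 for Pnpla2 (exact p = 0.0231, adjusted 0.1061) and 0.80 for Plin2 (exact p = 0.0556, adjusted 0.1698), with rho of 0.91, 0.91 and 0.88. Without the 2 mice farthest from the median in the member, r was 0.88, 0.79 and 0.64. None of these passed the correction.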
